A study of Mus musculus with 19 samples.

Results

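The 32 genes described here mark T cells or carry the signal of the T cell receptor. They were chosen by name as 7 receptor chains, 10 surface proteins, 10 signaling proteins and 5 transcription factors, and each of the 32 matched 1 of the 48795 gene rows. Their levels were measured by bulk RNA sequencing in 19 primary p53/MCA sarcomas of mice, 11 with the genotype Rag2-/- and 8 with the genotype Rag2+/-. All mice had received Adeno-sgp53-Cas9, an adenovirus that carries the Cas9 nuclease and a guide against Trp53, in the gastrocnemius muscle together with 300 µg of the carcinogen 3-methylcholanthrene (MCA). They were 6 to 10 weeks old at injection, their tumors were left untreated and were taken at 70 to 150 mm3, each library is 1 tumor, and the groups were littermates of both sexes. The strain of the Rag2 mice is not given in the sources used here. Values are the authors' upper-quartile normalized FPKM (fragments per kilobase of transcript and per 1e6 fragments), to which 0.1 was added before the log2 was taken, so a gene listed at 0 FPKM has the lowest value of −3.32.

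Rag2 encodes a subunit of the recombinase that joins the V, D and J segments of the T cell receptor and antibody genes. Lymphocytes that cannot join them do not mature, so a Rag2-/- mouse lacks T and B cells and keeps natural killer (NK) cells, other innate lymphoid cells and myeloid cells. The receptor itself is an alpha and a beta chain that bind antigen, carried by the CD3 proteins and the zeta chain. These are phosphorylated by the kinase Lck and recruit the kinase Zap70, which acts on the adaptors Lat and SLP-76. Several of these genes are also known to be expressed in NK cells, mast cells, macrophages, stroma or muscle, so the comparison of the 2 genotypes asks which of them were lost with T cells and which were still measured without them. In whole tumors, fewer cells of a type and less RNA per cell cannot be told apart.

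Estimated from the step between low values, the fragments on genes came to 24.8 to 33.7 (in units of 1e6) in 18 of the tumors and to 5.23 in the Rag2-/- tumor S41. For a gene of 1 kilobase, a single fragment added 0.0342 to 0.0853 FPKM in the 18 tumors and 0.209 FPKM in S41. The estimates cover counting error only. The mean of 12 muscle genes, which ran from 4.52 to 12.3 in Rag2-/- tumors and from 6.71 to 13.4 in Rag2+/- tumors on the log2 scale, was highest in the Rag2+/- tumor S56. That tumor had the lowest value of its group in 17 of the 32 members and listed 8 of them at 0 FPKM. Rag2 RNA was measured in both groups, at −2.05, −0.16 and 0.36 (lowest, median and highest) in Rag2-/- and −2.33, −1.13 and −0.57 in Rag2+/- tumors, a level higher by 0.97 in Rag2-/- tumors (exact permutation test, p = 0.0137). Which part of the gene the null allele lacks is not given in the sources used here, so these values do not check the labels. The antibody constant gene Igkc, by contrast, differed by −9.73 (limma, adjusted p = 2.43e-09).

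The members fell into 3 classes in the Rag2-/- tumors. Cd3e and Themis were listed at 0 FPKM in all 11, which was so for 0.671% of the 21472 genes tested. Another 13 members were listed at 0 in some of the 11 tumors, and 17 members were above 0 in every one, while 24 members were above 0 in all 8 Rag2+/- tumors. The values of the 2 groups did not overlap for 8 of the 32 members, against 0.0652% of all genes tested, namely Cd3d, Cd3e, Cd3g, Trac, Cd8a, Cd8b1, Cd6 and Themis. All 32 members passed the filter on low values, which asked for a value above 0 FPKM in at least 3 tumors. Cd3e, Themis and Cd6 passed it only with the Rag2+/- tumors, where they were high. Calls and lack of overlap for these genes therefore describe the tumors and are not independent support. With the 25052 genes above 0 FPKM in any tumor, limma called the same 11 members. There too, Cd3e and Themis entered only through the Rag2+/- tumors.

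**Figure D1:**
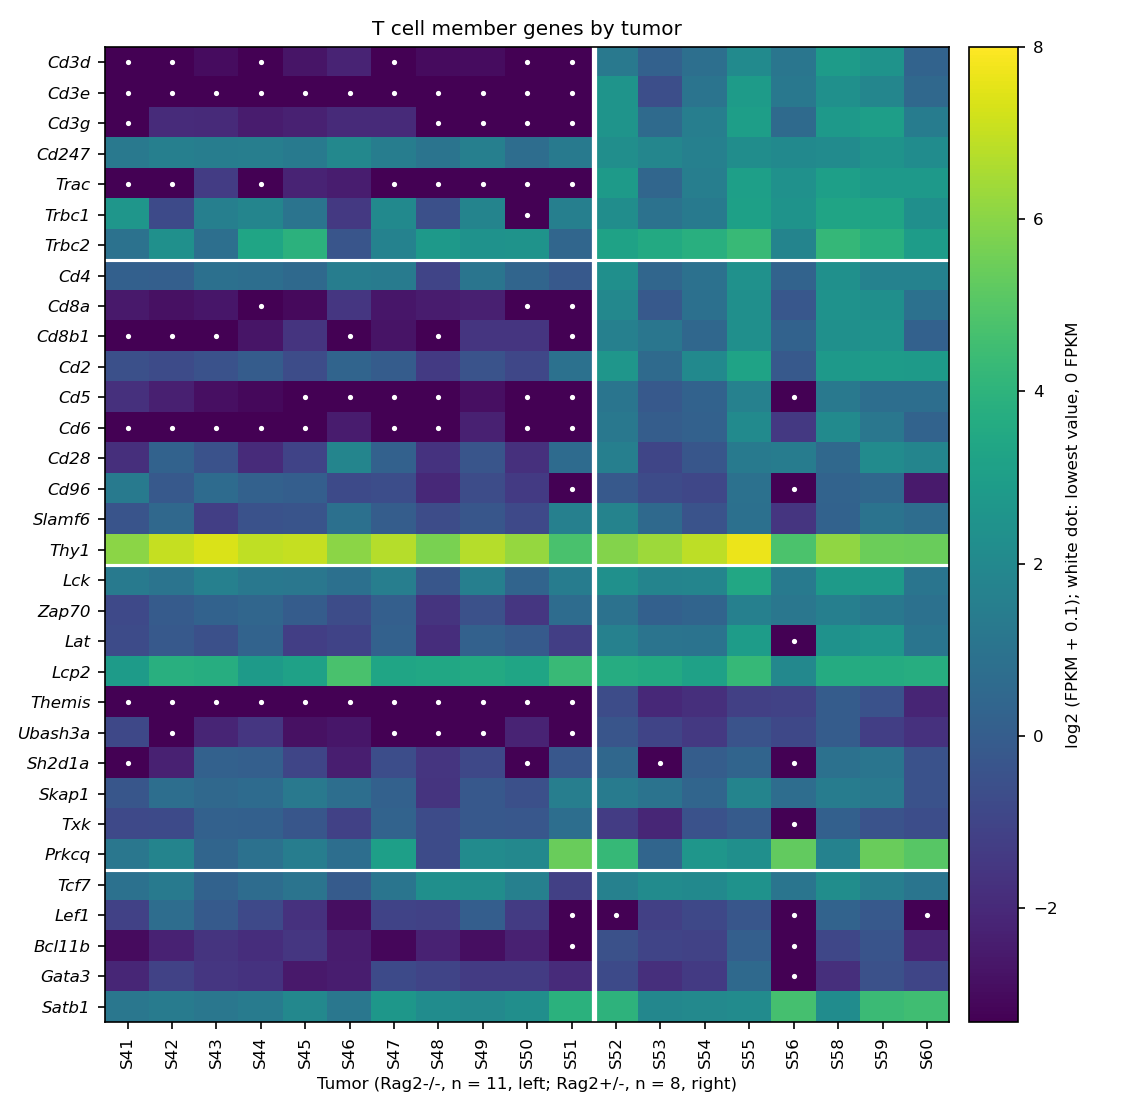
Level of each of the 32 member genes (rows, grouped as receptor chains, surface proteins, signaling proteins and transcription factors) in each of the 19 tumors (columns, 11 Rag2-/- left and 8 Rag2+/- right), as log2 (FPKM + 0.1) in color, with a white dot where the gene is listed at 0 FPKM. Cd3e and Themis carry a dot in all 11 Rag2-/- tumors, Thy1 is the brightest row in most tumors, and 8 of the 11 dots on the right belong to S56.

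A total of 11 of the 32 members were lower in Rag2-/- tumors by limma at an adjusted p under 0.05, against 0.168% of all genes tested, and 0 were higher. They were 4 receptor chains, 5 surface proteins and 2 signaling proteins, and 0 of the 5 transcription factors were among them. Cd3e, Cd6 and Themis count among the 11, although they passed the filter only with the Rag2+/- tumors. By the exact permutation test of each gene alone, 22 members were lower at p under 0.05, against 6.15% of all genes tested, and 0 were higher, against 5.73%. The median difference over the 32 members was −1.41 on the log2 scale, beside 0.07 over all genes tested. Lists of other cells moved as well, although limma called 0 of their genes in the 2 cases given here. The median was −2.23 over 12 muscle genes, 4 of them lower by the exact permutation test of each gene alone. It was 0.94 over 12 NK cell genes, 6 of them higher by that test. In the 15 tumors that the study's source data list, without S41, S46, S51 and S56, 12 members were called, against 0.228% of genes, and 12 did not overlap, against 0.214%.

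**Figure D2:**
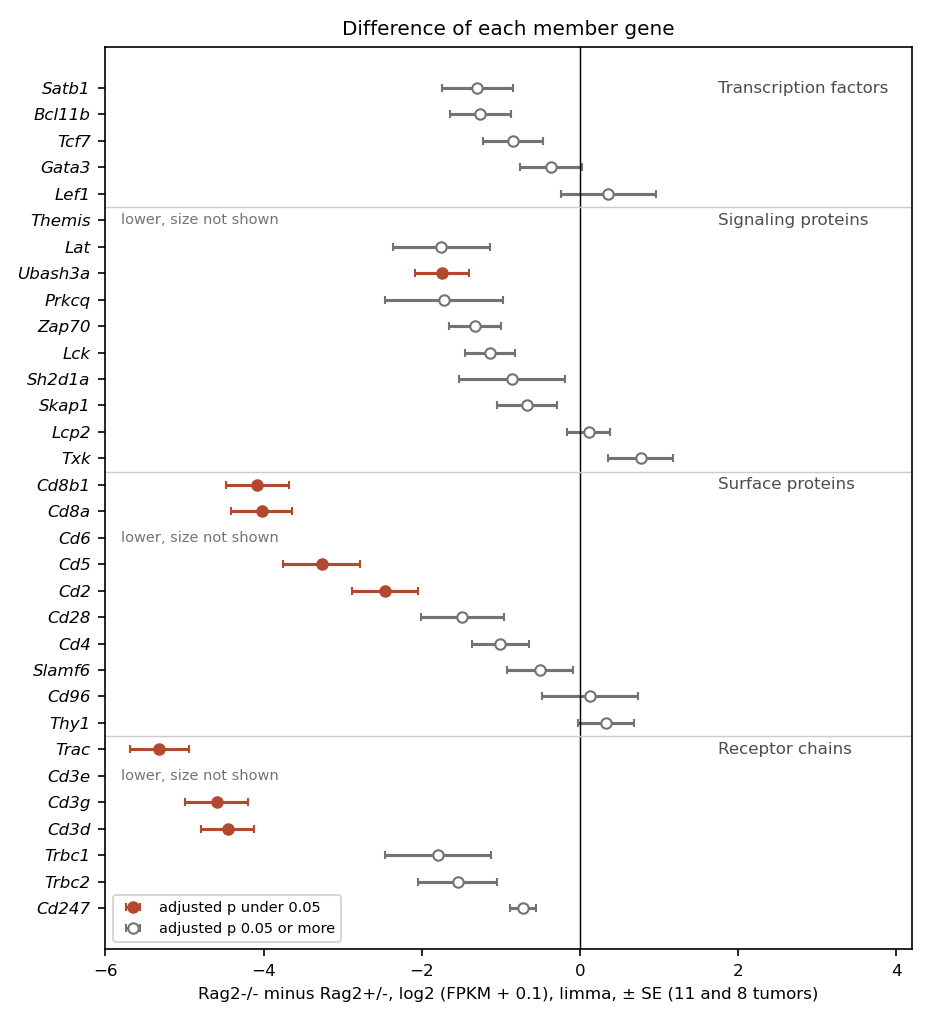
Difference between the group means of each member gene (Rag2-/- minus Rag2+/-, log2 of FPKM + 0.1, bars ± SE from limma, 11 and 8 tumors), grouped by role, with filled red points for an adjusted p under 0.05 and open gray points otherwise, and no point for Cd3e, Cd6 and Themis, which passed the filter only with the Rag2+/- tumors. The 8 filled points lie between −5.32 for Trac and −1.74 for Ubash3a, and 5 open points, Thy1, Cd96, Lcp2, Txk and Lef1, lie right of 0. Sizes of genes listed at 0 FPKM in some tumors depend on the added 0.1.

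Among the receptor chains, the 3 CD3 genes and Trac fell in Rag2-/- tumors. Cd3e (ENSMUSG00000032093), the epsilon chain shared by all CD3 dimers, was at −3.32 in every Rag2-/- tumor and at −0.61, 1.53 and 2.90 (lowest, median and highest) in Rag2+/- tumors. Cd3d (ENSMUSG00000032094), the delta chain, was at −3.32, −3.32 and −2.17 in Rag2-/- and at 0.19, 1.18 and 2.91 in Rag2+/- tumors. Cd3g (ENSMUSG00000002033), the gamma chain, was at −3.32, −2.48 and −1.94 in Rag2-/- and at 0.58, 2.04 and 3.04 in Rag2+/- tumors. The lowest Rag2+/- tumor for all 3 genes was S53, and it was still above every Rag2-/- tumor. The traces in Rag2-/- tumors were few, at most an estimated 4.87 fragments for Cd3d and 9.90 for Cd3g. By limma the differences were −4.46 ± 0.34 (SE, adjusted p = 8.42e-08) for Cd3d and −4.59 ± 0.39 (SE, adjusted p = 5.08e-07) for Cd3g. Each was listed at 0 in some Rag2-/- tumors, so these sizes also depend on the added 0.1. Cd3e was called as well, but it was listed at 0 throughout one group, so that its fitted size depends on the added 0.1 and is left out.

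These 3 genes are neighbors on chromosome 9 of GRCm38, with no other protein-coding gene between them. Cd3g on the minus strand and Cd3d on the plus strand start 1354 bases apart and face away from each other, and Cd3e follows Cd3d after 11400 bases. The other called pairs of neighbors were Cd8b1 and Cd8a on chromosome 6, 35932 bases apart, and Cd5 and Cd6 on chromosome 19, 50338 bases apart, each again with 0 protein-coding genes between them. The 250 bases before the starts of the CD3 genes are shown because these members moved together. Those before Prkcq are shown because Prkcq stayed and correlated with the mean of the muscle genes, as described further on. RefSeq windows on GRCm38.p6 were given for 21 of the 32 members, 34 windows in all. The windows are Cd3d chr9:44981536-44981785 (plus strand), Cd3e chr9:45009612-45009861 (minus strand), Cd3g chr9:44980432-44980681 (minus strand) and Prkcq chr2:11172132-11172381 (plus strand). They precede the RefSeq starts, and where the GENCODE models begin further upstream, as for Prkcq at base 11172108 and Cd3e at base 45009627, the window lies inside the gene or overlaps its first bases. Capitals mark matches on either strand to 4 core motifs, CTTTGA of TCF and LEF factors, TGTGGT of RUNX factors, CAGGAAG of ETS factors and AGATAA of GATA factors, and no marked matches overlap.
Cd3d: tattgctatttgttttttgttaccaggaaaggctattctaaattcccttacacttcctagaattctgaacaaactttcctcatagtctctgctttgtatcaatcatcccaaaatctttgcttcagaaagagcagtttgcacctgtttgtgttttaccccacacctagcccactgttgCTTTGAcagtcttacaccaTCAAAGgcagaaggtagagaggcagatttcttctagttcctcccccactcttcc
Cd3e: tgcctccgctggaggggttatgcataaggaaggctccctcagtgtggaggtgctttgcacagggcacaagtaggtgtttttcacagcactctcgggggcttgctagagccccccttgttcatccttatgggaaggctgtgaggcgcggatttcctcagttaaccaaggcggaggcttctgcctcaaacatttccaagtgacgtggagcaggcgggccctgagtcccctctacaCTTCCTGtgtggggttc
Cd3g: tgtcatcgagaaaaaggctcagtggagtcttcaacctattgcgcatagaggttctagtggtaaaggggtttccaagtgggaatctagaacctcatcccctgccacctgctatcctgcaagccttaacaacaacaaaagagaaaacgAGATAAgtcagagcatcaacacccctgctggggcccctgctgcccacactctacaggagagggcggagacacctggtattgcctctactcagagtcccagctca
Prkcq: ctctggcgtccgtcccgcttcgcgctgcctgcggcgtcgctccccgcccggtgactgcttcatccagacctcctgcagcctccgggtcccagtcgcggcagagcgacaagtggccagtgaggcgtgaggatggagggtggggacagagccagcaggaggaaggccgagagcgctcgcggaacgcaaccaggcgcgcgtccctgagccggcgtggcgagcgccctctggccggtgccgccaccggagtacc

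The CTTTGA letters occurred in 13.8% of 32851 windows of all genes and in 6 of the 34 member windows, the RUNX letters in 14% and 4, the ETS letters in 10.8% and 8, and the GATA letters in 9.99% and 3. The windows of Cd3d, Cd3e and Cd3g shared no motif with each other. Prkcq held 0 matches and differed in base composition, with 72.4% G or C and 30 CG pairs against 41.2% and 0 for Cd3d, 57.2% and 7 for Cd3e and 51.6% and 4 for Cd3g. The median over all windows was 52.4% and 6. A match describes letters in this window and is not evidence of binding.

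Trac (ENSMUSG00000076928), the constant region of the alpha chain at chr14:54220521-54224206, was listed at 0 in most Rag2-/- tumors. It was at −3.32, −3.32 and −1.32 in Rag2-/- and at 0.44, 2.78 and 3.07 in Rag2+/- tumors. The 3 Rag2-/- tumors above 0 FPKM were S43, S45 and S46, the highest at an estimated 6.97 fragments, and the groups did not overlap. The difference was −5.32 ± 0.37 (SE, limma, adjusted p = 3.10e-08).

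The beta constant genes behaved differently from Trac. Trbc1 (ENSMUSG00000076490, chr6:41538218-41539881) was at −3.32, 1.55 and 2.63 in Rag2-/- and at 0.93, 2.40 and 3.30 in Rag2+/- tumors. Trbc2 (ENSMUSG00000076498, chr6:41546730-41548352) was at −0.33, 2.37 and 3.95 in Rag2-/- and at 1.77, 3.69 and 4.32 in Rag2+/- tumors. For both genes the groups overlapped widely, with 7 and 6 of the 11 Rag2-/- tumors at or above the lowest Rag2+/- tumor, and the highest Rag2-/- tumor for Trbc1 was S41, with 2.06 as the highest value without it. For Trbc2 the lowest Rag2+/- tumor was S56, and without it 2 of the 11 Rag2-/- tumors reached the Rag2+/- range. The differences of −1.79 ± 0.66 and −1.55 ± 0.50 (SE) did not pass limma (adjusted p = 0.347 for both), although each gene alone was lower by the exact permutation test (p = 0.0118 and p = 0.00865). The 2 genes are near-identical copies, so fragments may have been divided between them and their single values are uncertain. Over 518 aligned coding bases they were 95.6% identical in the GENCODE transcripts of the reference, with 1 difference in the first exon of 375 bases and 22 in the 143 coding bases after it. Spliced coding bases 369 to 518 of each are shown to mark where fragments can tell the copies apart, with differing bases in capitals.
Trbc1: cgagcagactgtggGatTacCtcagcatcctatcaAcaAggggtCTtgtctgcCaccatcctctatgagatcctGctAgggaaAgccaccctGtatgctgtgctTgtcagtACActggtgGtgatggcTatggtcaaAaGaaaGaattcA
Trbc2: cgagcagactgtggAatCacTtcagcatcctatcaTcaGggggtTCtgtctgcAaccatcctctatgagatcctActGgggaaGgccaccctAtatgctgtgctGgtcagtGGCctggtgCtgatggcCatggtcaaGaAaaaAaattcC

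The longest identical run was 259 bases, beyond the 150 bases of a read. Summed over both copies, the beta constant level was 0.970, 7.26 and 17.3 FPKM (lowest, median and highest) in Rag2-/- and 8.76, 15.01 and 28.4 FPKM in Rag2+/- tumors. All 11 Rag2-/- tumors thus held beta constant RNA, and the groups overlapped.

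The variable segments, which V(D)J joining makes part of a receptor message, differed between the chains. Of 35 Trbv rows, 0 were above 0 FPKM in any Rag2-/- tumor, while 20 were in at least 1 Rag2+/- tumor. Their summed level was 0, 3.33 and 11.5 FPKM in Rag2+/- tumors, 7 of which held some, S60 being the exception. The rows of highest mean were Trbv29, above 0 in 5 of 8 Rag2+/- tumors, Trbv13-3 in 3 and Trbv3 in 4. Of 128 Trav rows, 7 were above 0 in at least 1 Rag2-/- tumor and 54 in at least 1 Rag2+/- tumor, and the summed levels were 0, 0.198 and 0.802 FPKM in Rag2-/- and 0.0218, 3.23 and 6.23 FPKM in Rag2+/- tumors. S56 held the lowest of these, below all 7 Rag2-/- tumors with any, so the groups overlapped in alpha variable RNA through that tumor. Trav10, Trav5-1 and Trav16 had the highest means in Rag2+/- tumors and Trav4-3, Trav13-3 and Trav14-2 in Rag2-/- tumors. The delta variable rows did not follow the beta rows. Summed over 6 Trdv rows, 6 of 11 Rag2-/- tumors held some, at 0, 0.272 and 1.22 FPKM (lowest, median and highest), and 5 of 8 Rag2+/- tumors did, at 0, 0.343 and 0.933 FPKM. The 6 Tcrg-V rows were above 0 in 1 tumor of each group, at 0.634 FPKM in the Rag2-/- tumor S48 and 0.195 FPKM in the Rag2+/- tumor S55. All J segment rows of the alpha, beta and delta loci were listed at 0 in all 19 tumors.

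**Figure D3:**
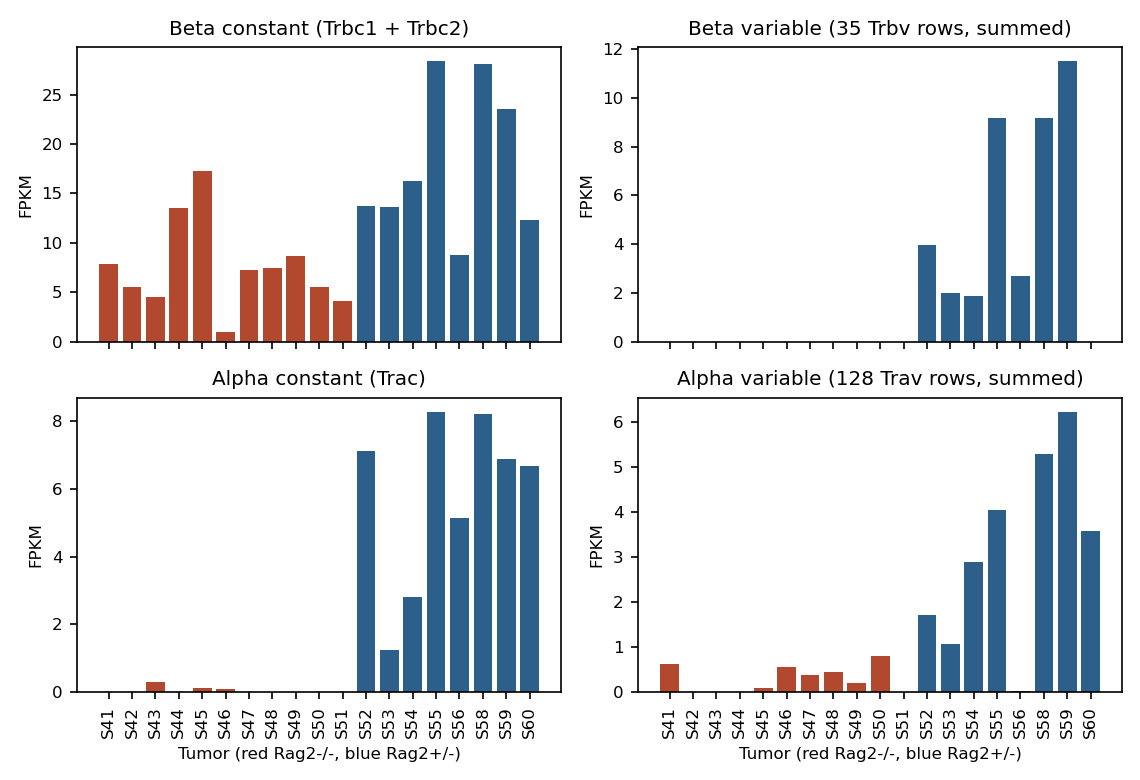
FPKM of the beta constant genes (Trbc1 plus Trbc2), the 35 beta variable rows summed, Trac and the 128 alpha variable rows summed, as 1 bar per tumor from 0 (red Rag2-/-, n = 11, blue Rag2+/-, n = 8). Red bars reach 17.3 FPKM for beta constant RNA and stay at 0 for beta variable RNA, and for Trac they reach 0.301 FPKM against 1.25 to 8.28 FPKM for the blue bars.

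Cd247 (ENSMUSG00000005763), the zeta chain, which also signals for NK cell receptors, was above 0 in all 19 tumors. It was at 0.73, 1.46 and 1.97 in Rag2-/- and at 1.61, 2.17 and 2.49 in Rag2+/- tumors. Only the Rag2-/- tumor S46 reached the Rag2+/- range, and without S41, S46, S51 and S56 the groups did not overlap. The difference of −0.72 ± 0.17 (SE) had an adjusted p of 0.138 by limma and p = 1.59e-04 by the exact permutation test of this gene alone. Other genes share 3213 of its 5329 exonic bases, Gm16565 on the same strand and Pou2f1 on the opposite strand. Its value is therefore uncertain, and use of strand would not separate it from Gm16565.

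The surface proteins ranged from listed at 0 in most Rag2-/- tumors to similar levels in both groups. The CD8 coreceptor genes Cd8a (ENSMUSG00000053977, chr6:71373427-71379173) and Cd8b1 (ENSMUSG00000053044, chr6:71322788-71337494) fell. Cd8a was at −3.32, −2.63 and −1.52 in Rag2-/- and at −0.25, 1.45 and 2.47 in Rag2+/- tumors, a difference of −4.02 ± 0.39 (SE, limma, adjusted p = 3.42e-06). Cd8b1 was at −3.32, −3.32 and −1.57 in Rag2-/- and at 0.22, 1.36 and 2.43 in Rag2+/- tumors, a difference of −4.08 ± 0.40 (SE, limma, adjusted p = 4.04e-06). Neither gene overlapped between groups. Cd8a, which is also known from dendritic cells, was above 0 in 8 of the 11 Rag2-/- tumors and Cd8b1 in 5, at no more than an estimated 19.2 and 8.97 fragments.

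The coreceptor Cd4 (ENSMUSG00000023274), which is also known from macrophages and innate lymphoid cells, was above 0 in all 19 tumors. It was at −1.02, 0.57 and 1.49 in Rag2-/- and at 0.28, 1.69 and 2.43 in Rag2+/- tumors, and 7 of the 11 Rag2-/- tumors lay at or above the lowest Rag2+/- tumor. The difference of −1.0 ± 0.37 (SE) did not pass limma (adjusted p = 0.347) and had p = 0.0151 by the exact permutation test. The macrophage list, 12 genes led by Lyz2 and C1qa, was at 5.74 to 7.78 in Rag2-/- and 4.90 to 6.61 in Rag2+/- tumors, with 12 of 12 genes above 0 in all 19 tumors. Across the 11 Rag2-/- tumors Cd4 had r = 0.53 with that list (permutation test, adjusted p = 0.352). Its highest r was 0.76, with 8 dendritic cell genes (permutation test, adjusted p = 0.135). Which cells held Cd4 RNA was not tested.

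Cd6 and Cd5, related receptors that dampen receptor signaling, were at or near the floor in Rag2-/- tumors. Cd6 (ENSMUSG00000024670) was above 0 in 2 of 11 Rag2-/- tumors and was at −3.32, −3.32 and −2.27 there, against −1.43, 0.73 and 2.10 in Rag2+/- tumors, without overlap. It was called by limma, and its fitted size is left out as for Cd3e. Cd5 (ENSMUSG00000024669) was at −3.32, −3.32 and −1.73 in Rag2-/- and at −3.32, 0.78 and 1.64 in Rag2+/- tumors (difference −3.27 ± 0.48, SE, limma, adjusted p = 0.00136). The call was lost by the exact permutation test over all genes (adjusted p = 0.155), and the adjusted p ran from 1.10e-07 to 0.155 over all alternatives. The Rag2+/- tumor at the floor for Cd5 was S56, and 7 of 8 Rag2+/- tumors were above every Rag2-/- tumor. The highest Rag2-/- tumor for Cd5 was S41, and −2.33 was the highest without it.

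Cd2 (ENSMUSG00000027863), an adhesion receptor of T and NK cells, was called although it was above 0 in every tumor. It was at −1.39, −0.46 and 0.90 in Rag2-/- and at −0.17, 2.69 and 3.26 in Rag2+/- tumors, so the groups overlapped, through S51 on the high side and S56 on the low side. The difference was −2.47 ± 0.42 (SE, limma, adjusted p = 0.00844). With the muscle list as a covariate the adjusted p was 0.0633, and over all alternatives it ran from 2.08e-04 to 0.155.

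Cd28, Slamf6 and Cd96 did not pass limma. Cd28, the costimulatory receptor, was at −1.95, −0.47 and 1.84 in Rag2-/- and at −0.96, 1.35 and 2.13 in Rag2+/- tumors, a difference of −1.49 ± 0.52 (SE, adjusted p = 0.347) that was −0.87 with the muscle list as a covariate. Slamf6, a SLAM family receptor of T and NK cells, was at −1.22, −0.36 and 1.62 against −1.56, 0.63 and 1.73, with a difference of −0.50 ± 0.42 (SE, adjusted p = 0.535). That difference was −0.78 without S56, −0.31 without S52, −0.26 with the muscle list as a covariate and −1.08 in the 15 tumors, where p was 0.00466 by the exact permutation test. Cd96, a receptor of T and NK cells, was listed at 0 in 1 tumor of each group and differed by 0.13 ± 0.61 (SE, adjusted p = 0.923), a direction that turned without S41, S56 or S60, in the 15 tumors and, to −0.48, with the muscle list as a covariate. For these 3 genes the ranges of the groups overlapped.

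Thy1 (ENSMUSG00000032011), the pan-T cell antigen that is also expressed by fibroblasts and nerve cells, had the highest median FPKM of the 32 members in both groups. It was at 27.2, 106 and 162 FPKM in Rag2-/- and at 27.6, 64.7 and 202 FPKM in Rag2+/- tumors. The lowest tumors were S51 and S56, which had the lowest and next lowest means of any tumor over the 9 fibroblast genes, and the groups covered the same range. On the log2 scale the difference was 0.33 ± 0.36 (SE, limma, adjusted p = 0.632), 0.15 without S56, 0.56 without S55 and −0.08 with the muscle list as a covariate.

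Of the signaling proteins, Themis and Ubash3a fell. Themis (ENSMUSG00000049109), a regulator of receptor signaling needed for T cell development, was at −3.32 in all 11 Rag2-/- tumors and at −2.13, −1.13 and −0.01 in Rag2+/- tumors. All 8 Rag2+/- tumors were therefore above all Rag2-/- tumors, although the level was low, at most 0.892 FPKM. It was called by limma, with a fitted size that depends on the added 0.1 and is left out. Ubash3a (ENSMUSG00000042345), a phosphatase-like inhibitor of receptor signaling, was at −3.32, −2.82 and −0.88 in Rag2-/- and at −1.69, −0.94 and −0.05 in Rag2+/- tumors. Its highest Rag2-/- tumor was S41, and −1.54 was the highest without it. Its difference of −1.74 ± 0.34 (SE, limma, adjusted p = 0.0372) was the least stable call, lost when any of 14 single tumors was left out, with adjusted p from 0.00306 to 0.0936.

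The kinases and adaptors at the head of the cascade were measured in all or nearly all Rag2-/- tumors. Lck (ENSMUSG00000000409), the kinase that phosphorylates the CD3 and zeta chains, was at −0.30, 1.23 and 1.62 in Rag2-/- and at 1.10, 2.11 and 3.46 in Rag2+/- tumors. Zap70 (ENSMUSG00000026117), the kinase recruited to them, was at −1.62, −0.09 and 0.70 in Rag2-/- and at 0.14, 1.05 and 1.61 in Rag2+/- tumors. Lat (ENSMUSG00000030742), the adaptor that Zap70 phosphorylates, was at −1.86, −0.54 and 0.26 in Rag2-/- and at −3.32, 1.37 and 2.93 in Rag2+/- tumors. For Lck and Zap70, 6 of the 8 Rag2+/- tumors lay above every Rag2-/- tumor, and for Lat 7 did, with S56 at the floor.

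The differences were −1.14 ± 0.32 (SE, limma, adjusted p = 0.282) for Lck, −1.33 ± 0.33 (SE, adjusted p = 0.190) for Zap70 and −1.75 ± 0.61 (SE, adjusted p = 0.347) for Lat. Alone, each was lower by the exact permutation test, with p = 0.00209, 3.97e-04 and 0.0144. Lat was the member added to the calls in the 15 tumors, at −2.23 (limma, adjusted p = 0.0187, with 0.00202 to 0.702 over all alternatives), and it was also called when S56 alone was left out, at −2.39 (adjusted p = 0.00202). The 12 NK cell genes were above 0 in all 11 Rag2-/- tumors, with a list mean of 0.39 to 2.17 there and −1.43 to 1.74 in Rag2+/- tumors, and their part in the levels of Lck, Zap70 and Lat was not tested beyond the correlations given further on.

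Lcp2 (ENSMUSG00000002699), which encodes the adaptor SLP-76 of T cells and many myeloid cells, hardly differed between the means. It was at 2.86, 3.42 and 4.76 in Rag2-/- and at 1.98, 3.65 and 4.25 in Rag2+/- tumors, and all 11 Rag2-/- tumors lay at or above the lowest Rag2+/- tumor, S56. The difference was 0.11 ± 0.27 (SE, limma, adjusted p = 0.842), and it turned to the other side without S46 or S56 and in the 15 tumors.

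Prkcq (ENSMUSG00000026778), which encodes protein kinase C theta of T cells and skeletal muscle, was among the 17 members above 0 in all Rag2-/- tumors. Within the Rag2-/- tumors it had the largest SD of these 17 on the log2 scale. It was at 0.505, 2.71 and 42.04 FPKM in Rag2-/- and at 1.19, 12.6 and 42.4 FPKM in Rag2+/- tumors. The Rag2-/- tumor at 42.04 FPKM was S51, and the highest Rag2+/- tumors were S52, S56, S59 and S60, the same 5 tumors that led the muscle list. On the log2 scale the difference was −1.72 ± 0.74 (SE, limma, adjusted p = 0.347), and it was −0.06 with the muscle list as a covariate.

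Txk, a Tec family kinase of T and NK cells, was at −1.13, −0.26 and 0.78 in Rag2-/- and at −3.32, −0.56 and 0.15 in Rag2+/- tumors, the largest of the 5 differences above 0, at 0.77 ± 0.41 (SE, limma, adjusted p = 0.384) and 0.44 without S56, which was at the floor, and 0.50 in the 15 tumors. Skap1, an adaptor that links the receptor to integrins, was at −1.61, 0.50 and 1.53 against −0.45, 1.13 and 1.81, with a difference of −0.67 ± 0.38 (SE, adjusted p = 0.408). Sh2d1a, the SAP adaptor of SLAM receptors, was above 0 in 9 of 11 and 6 of 8 tumors and differed by −0.86 ± 0.67 (SE, adjusted p = 0.511). The opposite-strand gene Tenm1 shares 1465 of the 5505 exonic bases of Sh2d1a, so that value is uncertain. All 3 genes overlapped between the groups.

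None of the 5 transcription factors passed limma. Tcf7 (ENSMUSG00000000782), encoding TCF-1 of T cells and innate lymphoid cells, was at −1.17, 1.02 and 2.33 in Rag2-/- and at 1.07, 1.84 and 2.45 in Rag2+/- tumors, a difference of −0.85 ± 0.38 (SE, adjusted p = 0.349) that was −1.29 with the muscle list as a covariate and −0.56 in the 15 tumors. Bcl11b (ENSMUSG00000048251), which commits precursors to the T cell lineage, was at −3.32, −2.27 and −1.52 in Rag2-/- and at −3.32, −0.96 and 0.12 in Rag2+/- tumors, a difference of −1.26 ± 0.39 (SE, adjusted p = 0.342). For Bcl11b, 6 of 8 Rag2+/- tumors were above every Rag2-/- tumor and S56 was at the floor. Satb1 (ENSMUSG00000023927), a chromatin organizer, was at 1.15, 1.96 and 3.89 in Rag2-/- and at 1.90, 3.10 and 4.68 in Rag2+/- tumors, a difference of −1.30 ± 0.45 (SE, adjusted p = 0.347) that was −0.45 with the muscle list as a covariate. Its highest tumors were again S51 in one group and S52, S56, S59 and S60 in the other. Gata3, the factor of helper T cells and innate lymphoid cells, differed by −0.37 ± 0.39 (SE, adjusted p = 0.632), by −0.66 without S56 and by −0.11 without S55, and was at −2.56, −1.51 and −0.78 in Rag2-/- and at −3.32, −1.17 and 0.54 in Rag2+/- tumors. Lef1, a relative of TCF-1, was above 0 in 10 of 11 Rag2-/- and 5 of 8 Rag2+/- tumors and differed by 0.36 ± 0.60 (SE, adjusted p = 0.765), by 0.10 without S52, S56 or S60, by up to 0.61 (without S58) when other single tumors were left out, and by −0.33 with the muscle list as a covariate. The opposite-strand gene Gm43352 shares 1208 of its 8788 exonic bases.

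Further genes of the receptor pathway, 36 in a list of kinases, phosphatases, adaptors and calcium signaling proteins, were compared in the same way. By limma 1 of the 36 was lower in Rag2-/- tumors, against 0.168% of all genes tested, and 0 were higher. By the exact permutation test of each gene alone 8 were lower and 3 higher at p under 0.05, against 6.15% and 5.73% of all genes tested. Of the 8, the calcium signaling genes Stim1, Ppp3ca and Orai1 differed by −1.12, −0.65 and −0.63, and by −0.17, −0.09 and −0.15 with the muscle list as a covariate. The one called was Sit1 (ENSMUSG00000028460), a transmembrane adaptor that interacts with SHP2, at −3.32, −3.32 and −1.5 in Rag2-/- and −3.32, −1.01 and 0.08 in Rag2+/- tumors, and that call was lost without S59. Sit1 was above 0 in 2 of 11 Rag2-/- tumors and passed the filter only with the Rag2+/- tumors, so its fitted size is left out. The median difference over the 36 genes was 0.07, as over all genes tested, and 34 of them were above 0 in all 19 tumors. Of the 4 gamma and delta constant genes, Tcrg-C2 was listed at 0 in all 11 Rag2-/- tumors and above 0 in 7 Rag2+/- tumors, through which alone it passed the filter, and the other 3 were not called.

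For the 17 members above 0 in every Rag2-/- tumor, values across those 11 tumors were set against the mean levels of 9 lists of other cells (NK cells, other innate lymphoid cells, macrophages, dendritic cells, mast cells, neutrophils, muscle, fibroblasts and endothelium), 153 pairs in all. Of these, 4 had an adjusted p under 0.05 over the 153, and all 4 were positive. Prkcq followed the muscle list most closely, with r = 0.96 (permutation test, p = 2e-05, adjusted p = 0.00306, n = 11) and rho = 0.94 (permutation test, p = 7e-05, adjusted p = 0.0107), and r was 0.91 without the 2 tumors farthest from the median, S48 and S51. Lck followed the NK cell list, with r = 0.92 (permutation test, p = 1.6e-04, adjusted p = 0.0122, n = 11), rho = 0.84 (permutation test, p = 0.00222, adjusted p = 0.0849) and r = 0.73 without S48 and S50. Slamf6 followed the innate lymphoid list, with r = 0.90 (permutation test, p = 3e-04, adjusted p = 0.0153, n = 11), rho = 0.90 (permutation test, p = 3.9e-04, adjusted p = 0.0298) and r = 0.72 without S43 and S51. Cd28 followed the macrophage list, with r = 0.84 (permutation test, p = 4.1e-04, adjusted p = 0.0157, n = 11), rho = 0.77 (permutation test, p = 0.00717, adjusted p = 0.219) and r = 0.71 without S44 and S46. Without the muscle-rich tumor S51 the Slamf6 pair was no longer called (r = 0.80, permutation test, adjusted p = 0.137), and Satb1 against muscle was not called in the 11 tumors (r = 0.69, permutation test, p = 0.0219, adjusted p = 0.197). Zap70 and Lat were not called against the NK cell list. Zap70 had r = 0.83 (permutation test, p = 0.00172, adjusted p = 0.0526) and r = 0.50 without S48 and S50. Lat had r = 0.28 (permutation test, p = 0.402, adjusted p = 0.664). A correlation across whole tumors does not show which cells held the RNA.

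**Figure D4:**
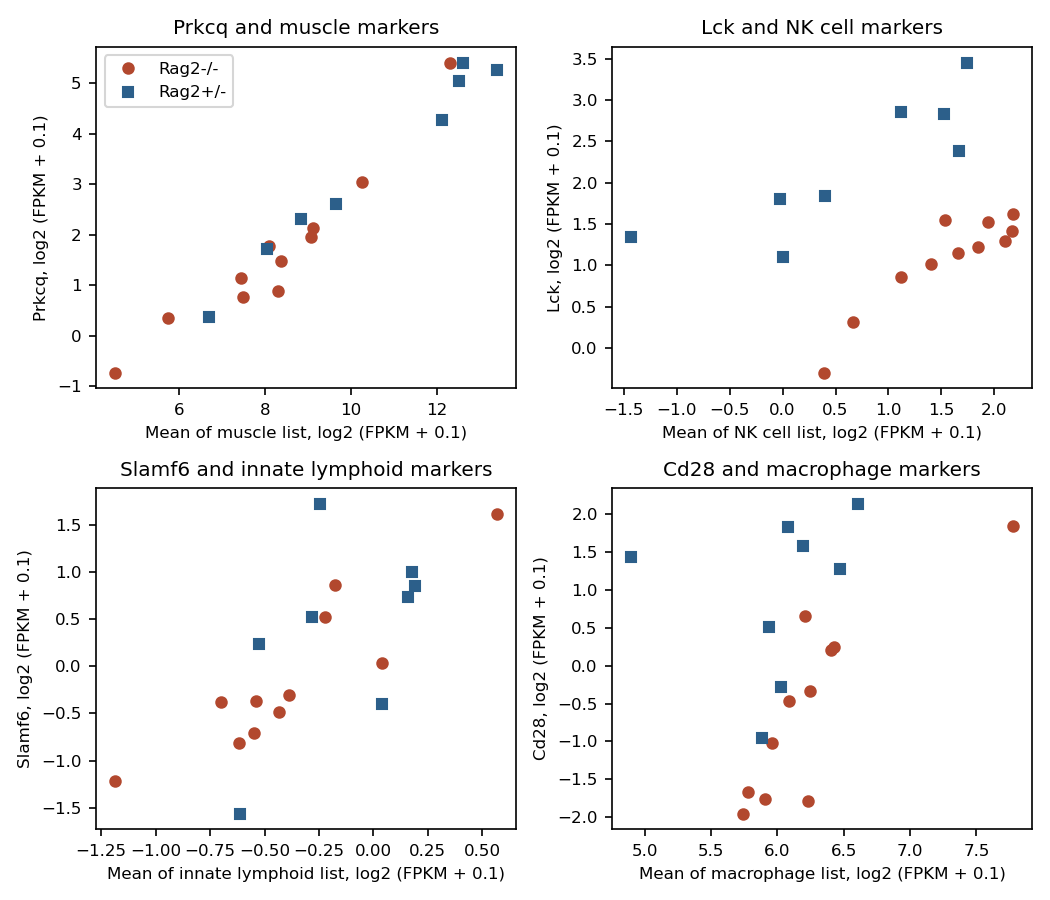
Level of Prkcq, Lck, Slamf6 and Cd28 (y axes) against the mean of the muscle, NK cell, innate lymphoid and macrophage lists (x axes), all as log2 (FPKM + 0.1), with 1 point per tumor (red circles Rag2-/-, n = 11, blue squares Rag2+/-, n = 8). The red points rise together with r of 0.96, 0.92, 0.90 and 0.84, and the blue points of Lck lie above the red ones at the same NK cell level.

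Within the 8 Rag2+/- tumors, the other 29 members were set against the mean of Cd3d, Cd3e and Cd3g, which was lowest in S53 and highest in S58. The correlation was above 0 for 28 of the 29 members, and 13 had p under 0.05 by the exact permutation test, but 0 had an adjusted p under 0.05 by r, against 9 by rho, all 9 at 0.0496. Cd8a was the closest, with r = 0.93 (exact permutation test, p = 0.00325, adjusted p = 0.0593, n = 8), rho = 0.88 (p = 0.00724, adjusted p = 0.0496) and r = 0.89 when S53 and S58, at the ends of the CD3 range, were left out. Lck had r = 0.86 (exact permutation test, p = 0.00999, adjusted p = 0.0593, n = 8), rho = 0.86 (p = 0.0107, adjusted p = 0.0496) and r = 0.97 without those tumors. Prkcq had r = 0.12 and Satb1 r = −0.03, with p = 0.75 and p = 0.933 by the exact permutation test. Without S56, 0 members passed by rho, with 0.0510 as the smallest adjusted p. By r, leaving out S56 gave 4 members with an adjusted p under 0.05, Cd8a, Cd6, Zap70 and Sh2d1a, and moved Cd5 from r = 0.54 to r = 0.86 and Lat from r = 0.57 to r = 0.90.

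**Figure D5:**
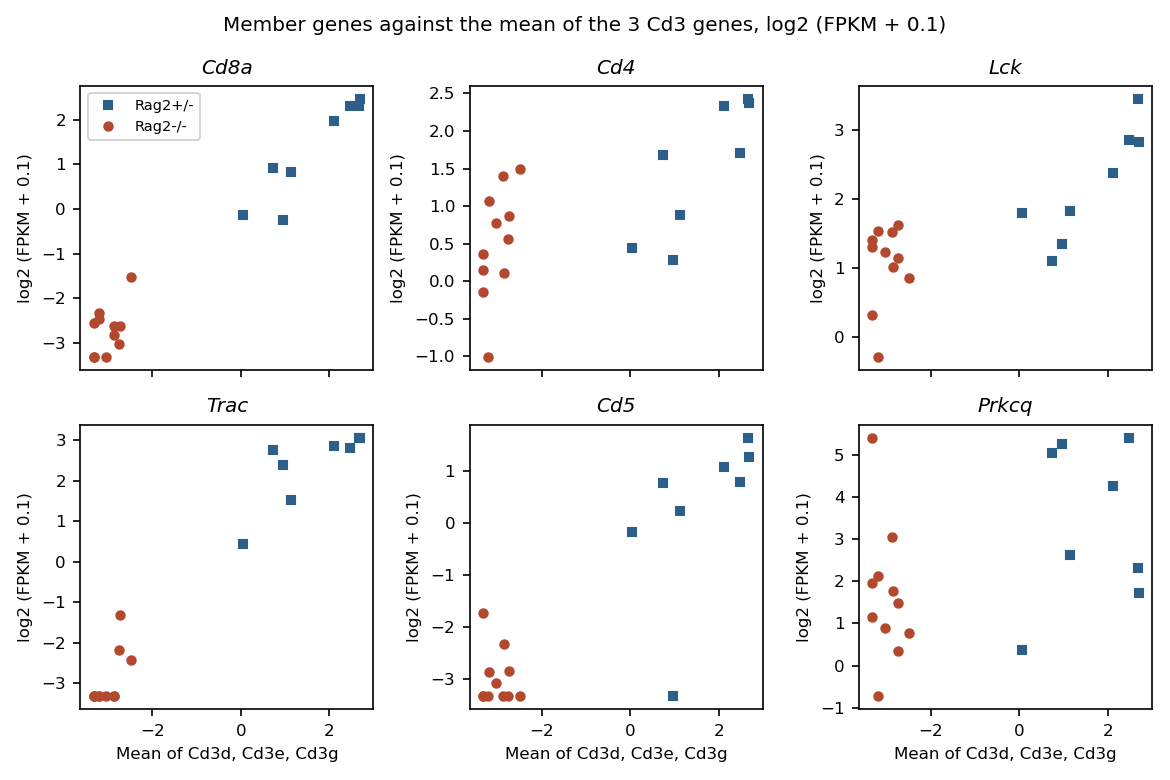
Level of Cd8a, Cd4, Lck, Trac, Cd5 and Prkcq (y axes) against the mean of Cd3d, Cd3e and Cd3g (x axes), all as log2 (FPKM + 0.1), with 1 point per tumor (blue squares Rag2+/-, n = 8, red circles Rag2-/-, n = 11). Blue points rise with the CD3 mean for Cd8a and Lck (r = 0.93 and 0.86), the blue Cd5 point at the floor is S56, and the blue Prkcq points follow no line (r = 0.12).

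Among the Rag2+/- tumors, S55 had the highest value of the group in 16 of the 32 members, S58 in 8 and S59 in 6. S56 had the lowest value in 17 and S53 in 10. In the Rag2-/- tumors, between 19 (S51) and 28 (S43, S45 and S46) of the 32 members were above 0 FPKM, with 24 in the shallow S41, against 24 in S56 and 31 or 32 in the other 7 Rag2+/- tumors.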

How the data were processed

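RNA of 19 tumors was sequenced as paired reads of 150 bases from NEBNext Ultra II libraries. The authors aligned reads with the Omicsoft aligner in Array Studio to mouse B38, allowing 2 mismatches, counted Ensembl release 86 models as FPKM, normalized FPKM to the upper quartile and deposited log2 values, with 0.1 added. The submitters' processing notes also name Trimmomatic 0.36, STAR 5.5.4b, HTSeq and mm10, with no role given. Whether strand was used is not given in the sources used here.

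The deposited log2 values were used as they are. The 32 members and all gene lists were chosen with earlier results of these data known. A gene was tested if it was above its lowest value of −3.32 in at least 3 tumors, which 21472 of 48795 genes were. Rag2-/- and Rag2+/- tumors were compared with limma 3.58.1 (R 4.3.3, intensity trend, Benjamini-Hochberg over all genes tested, threshold 0.05). Single genes were tested with a two-sided exact permutation test over 75582 relabelings, with 2.65e-05 as the smallest p. Correlations over 11 tumors used 100000 permutations and those over 8 tumors all 40320 orders, two-sided. List levels are means of log2 values. All 32 members are reported, and of other genes those that a list or a result turned on. Python 3.11.15, scipy 1.17.1 and pandas 2.3.3 were used.

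Depth was estimated from the smallest steps between low values. The titles give each of the 19 tumors a number of its own, and p-values measure the spread between these tumors. On data simulated for this comparison with 200 changed genes among 21472, limma recovered 79% of those changed by 2 and 98% of those changed by 4 on the log2 scale, with 2 false calls. Genes of the lowest mean levels were left out of the changed genes. These shares therefore do not cover members near the floor, such as Themis and Ubash3a. Alternatives were the 15 tumors of the source data, other added values, filters, scalings and variance settings, the exact test, the muscle list as a covariate and leaving out each tumor. The tumor numbers are not shared between the groups and litters are not given in the labels used here, so no paired analysis was possible. Tumors of littermates were treated as independent.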

Additional observations from a re-analysis of the deposited data

Results flagged for a closer look

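In the Rag2+/- group of 8 tumors, Cd5 and Lat each had 1 tumor far below the others. S56 was at −3.32 for Cd5, with the next lowest tumor at −0.17, a gap of 0.635 of the group's whole range. S56 was also at −3.32 for Lat, with the next lowest tumor at 1.0, a gap of 0.691 of the range. Both gaps passed Dixon's critical value for 8 samples at a level of 0.05. With 32 members screened, chance alone would carry about 1.6 past it, so the 2 found are near that share, and the Rag2-/- group of 11 was not screened. S56 had the highest mean over the 12 muscle genes of all tumors, at 13.4, and the lowest over the 12 NK cell genes, at −1.43. The part of the tumor's composition in these values was not tested.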

How the results depend on the processing

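Between 10 and 11 members were lower in Rag2-/- tumors when single tumors were left out, and 12 in the 15 tumors, 10 with 1 or 0.01 added, 10 with the muscle covariate and 8 by the exact permutation test, which lost Cd2, Cd5 and Ubash3a. With genes kept only at a mean log2 value above 0, where 16 members were tested, it was 1, Cd2. Over all genes the 36 calls became 62 in the 15 tumors, 14 by the exact permutation test, 4 under the mean filter and 28 to 59 when single tumors were left out, with 59 without S51. Of the other receptor pathway genes, the call of Sit1 became 0 with 1 added, under the mean filter and by the exact permutation test, and 0 to 1 when single tumors were left out. Members without overlap numbered 8 to 10 when single tumors were left out and 12 in the 15 tumors, and those at the floor in all Rag2-/- tumors stayed at 2. Single genes lower by the exact test numbered 21 to 23. Correlations with other cells numbered 3 to 5. Those with the CD3 mean numbered 4 without S56 and 12 with 1 added. Cd96 turned to −0.12 in the 15 tumors and to −0.07, −0.24 and −0.12 without S41, S56 and S60, and Lcp2 to −0.26 in the 15 tumors and to −0.0070 and −0.10 without S46 and S56. With the muscle covariate, Cd96, Thy1 and Lef1 turned to −0.48, −0.08 and −0.33. When single tumors were left out, Cd96 ran from −0.24 to 0.40 and Lcp2 from −0.10 to 0.23. The cause was not tested. S41, with the fewest fragments, limits low members most, since 1 fragment there is worth 0.209 FPKM per kilobase.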
